A study of Mus musculus with 6 samples.

Results

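The genes described here are 300 genes of medium length in which engaged RNA polymerase was most concentrated at the promoter. Each gene of the deposited table was represented by 1 transcript, the one with the most body reads on average, and 1562 of 2744 genes were eligible, with a body of 10 to 100 kb, at least 120 head reads and at least 300 body reads over the 6 libraries. The pausing ratio was the read density of the head window divided by that of the body, summed over all 6 libraries, and the members were the 300 eligible genes in which it was highest. The members were thus selected on these measured values, and their high ratios are given below as a description without a test. PRO-seq was run on cKIT+ bone marrow progenitors from C57/BL6 mice, all female, with the alleles Mllt3 flox/flox and Rosa26Cre+. The cells had been transduced with wild-type MLLT3 (WT, 3 libraries) or with MLLT3 K63E K67E (DM, 3 libraries). Sorted cells of both groups then spent 8 days in methylcellulose with cytokines and 200 nM 4-hydroxytamoxifen, which serves to delete the endogenous Mllt3, so both groups carried that deletion step and an introduced MLLT3. Nuclei ran on for 3 min at 30 °C, and all 6 libraries belong to batch 1. The labels do not say whether the 3 libraries of a group came from separate mice or cultures, so p-values measure only the spread between these libraries.

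After initiation, RNA polymerase II commonly stops a short distance downstream of the start site, held by the factors DSIF and NELF, until the kinase P-TEFb releases it into the gene body. PRO-seq, in which engaged polymerases extend their nascent RNA with labelled nucleotides, shows the held polymerase as a peak of reads near the start and the released polymerase as a thinner signal along the body. MLLT3, also called AF9, is a YEATS-domain reader of acylated histones that joins the super elongation complex, which carries P-TEFb and the ELL proteins. In blood progenitors, promoter-proximal pausing is known at many signal-responsive and developmental genes. In the deposited table the head window is 330 bp, from 30 bases before to 300 bases after the annotated start, and the body is the rest of the transcript, introns included.

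Promoter sequences are shown for the 5 members with the highest pausing ratio that had a RefSeq start within 50 bases of the deposited start. They are also shown for the members with the largest rise (Mcub) and the largest fall (Satb1) in head reads under the same condition. The printed windows lie mostly before the start and share only a part with the head window. Each runs from 250 bases before to 50 bases after the RefSeq start (GRCm38.p6), 5′ to 3′ on the gene's strand, and capitals mark matches on either strand to any of 7 motifs: the TATA box as TATAAA, the CCAAT box as its own letters, the GC box as GGGCGG, the E-box as CACGTG, the cAMP response element as TGACGTCA, the ETS motif as CCGGAAG and the GAGA motif as GAGAG. Snx7 lies at chr3:117868887-117869186, minus strand, Acer2 at chr4:86874164-86874463, plus strand, Errfi1 at chr4:150854820-150855119, plus strand, Enpp1 at chr10:24712110-24712409, minus strand, Atp2c1 at chr9:105495084-105495383, minus strand, Mcub at chr3:129970157-129970456, minus strand, and Satb1 at chr17:51832598-51832897, minus strand.
Snx7: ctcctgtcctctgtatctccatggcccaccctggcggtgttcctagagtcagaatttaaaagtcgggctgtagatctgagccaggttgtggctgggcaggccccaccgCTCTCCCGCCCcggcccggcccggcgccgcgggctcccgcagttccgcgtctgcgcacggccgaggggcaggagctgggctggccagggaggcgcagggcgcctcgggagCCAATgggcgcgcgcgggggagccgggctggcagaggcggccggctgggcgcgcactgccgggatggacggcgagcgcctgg
Acer2: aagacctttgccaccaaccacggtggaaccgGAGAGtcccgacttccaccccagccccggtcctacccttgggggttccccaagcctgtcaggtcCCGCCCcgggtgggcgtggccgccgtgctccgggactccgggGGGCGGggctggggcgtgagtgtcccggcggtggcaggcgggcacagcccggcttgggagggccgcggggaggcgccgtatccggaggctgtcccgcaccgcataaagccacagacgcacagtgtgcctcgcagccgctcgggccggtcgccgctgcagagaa
Errfi1: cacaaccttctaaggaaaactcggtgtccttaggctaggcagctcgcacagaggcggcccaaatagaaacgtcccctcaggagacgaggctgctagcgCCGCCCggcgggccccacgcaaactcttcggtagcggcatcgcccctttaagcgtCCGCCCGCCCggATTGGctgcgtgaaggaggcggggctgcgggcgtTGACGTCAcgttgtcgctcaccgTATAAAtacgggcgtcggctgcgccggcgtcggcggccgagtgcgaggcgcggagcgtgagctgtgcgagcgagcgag
Enpp1: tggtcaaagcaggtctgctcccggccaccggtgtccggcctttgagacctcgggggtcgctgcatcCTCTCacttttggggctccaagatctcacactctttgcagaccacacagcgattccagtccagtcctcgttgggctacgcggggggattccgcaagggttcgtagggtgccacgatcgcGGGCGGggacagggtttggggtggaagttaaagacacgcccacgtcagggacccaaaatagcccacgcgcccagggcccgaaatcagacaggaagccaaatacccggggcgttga
Atp2c1: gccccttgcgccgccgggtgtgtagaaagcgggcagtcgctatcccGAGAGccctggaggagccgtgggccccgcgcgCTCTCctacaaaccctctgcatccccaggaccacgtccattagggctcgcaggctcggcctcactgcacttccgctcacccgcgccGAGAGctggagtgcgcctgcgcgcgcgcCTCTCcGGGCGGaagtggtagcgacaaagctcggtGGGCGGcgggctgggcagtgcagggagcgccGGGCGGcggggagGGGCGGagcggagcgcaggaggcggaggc
Mcub: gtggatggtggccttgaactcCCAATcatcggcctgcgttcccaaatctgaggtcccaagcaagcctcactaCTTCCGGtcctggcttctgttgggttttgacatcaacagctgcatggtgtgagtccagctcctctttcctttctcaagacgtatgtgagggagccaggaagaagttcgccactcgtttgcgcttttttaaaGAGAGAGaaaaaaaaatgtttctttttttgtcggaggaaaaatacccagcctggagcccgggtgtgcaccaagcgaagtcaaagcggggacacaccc
Satb1: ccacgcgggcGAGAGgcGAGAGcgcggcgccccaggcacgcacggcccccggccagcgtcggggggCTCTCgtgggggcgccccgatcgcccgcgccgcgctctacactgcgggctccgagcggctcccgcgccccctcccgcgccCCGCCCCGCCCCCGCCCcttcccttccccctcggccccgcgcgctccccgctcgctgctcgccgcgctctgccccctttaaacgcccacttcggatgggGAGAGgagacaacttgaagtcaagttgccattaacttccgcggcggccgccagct
GC content was 73.7% in the Snx7 window, and the richest and poorest of the printed windows were those of Satb1 (76.7%) and Mcub (51.0%). A GC box was found in every printed window except that of Mcub, whose window held a CCAAT box, an ETS motif and the GAGA motif. The Errfi1 window was the one printed window with a TATA box and with a cAMP response element. Over all 32817 RefSeq windows of the same length, 13.6% held the TATA box, 37.4% the CCAAT box, 35.6% the GC box, 7.15% the E-box, 1.79% the cAMP response element, 8.86% the ETS motif and 62.0% the GAGA motif on either strand, and no motif contains another. Of the 300 members, 243 had a promoter entry under their symbol and 190 (63.3%) had one within 50 bases of the deposited start, under the 80% needed, so a comparison of base composition or motifs over the members was void and is not given.

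Library totals ran from 15112853 reads in WT replicate 2 to 22981603 in WT replicate 1. Mllt3 body reads were 80.6, 77.2 and 95.3 per 1000000 reads of the library total (RPM) in WT and 58.4, 63.0 and 58.9 in DM, over a gene to which the introduced cDNA may also contribute reads. Of 12 fixed markers of cKIT+ stem and progenitor cells, 10 were in the table, Kit among them, with a summed body signal of 4025 to 5138 RPM in WT and 2846 to 2968 in DM. The 8 mature myeloid markers in the table (of 14) summed to 271 to 331 RPM in WT and 660 to 745 in DM, and none of the 11 lymphoid markers was in the table. The 6 fibroblast, stromal and endothelial markers in the table (of 15) summed to 74.3 RPM in WT replicate 1, to 16.3 and 6.21 in the other WT libraries and to 7.81 to 11.3 in DM. The 4 erythroid and megakaryocyte markers in the table (of 10) summed to 197 to 223 RPM in WT and 107 to 125 in DM. The 4 mast and basophil markers in the table (of 7), of which Gata2 is also in the progenitor list, summed to 2369 to 3458 RPM in WT and 1641 to 1737 in DM. None of these lists holds a member, and their part in the results below was not tested. In bulk nuclei, fewer cells of a type and less transcription per cell cannot be told apart. Every row of the table had an adjusted p of at most 0.0498 in the body comparison of the authors' deposited table, so that body calls on these rows had been selected for. Counts of them are to be read beside the share over all genes, which here means all genes of that selected table. Head calls were made on the same selected genes. Head and body log2 fold changes had a Pearson r of 0.84 over the eligible genes, and the part of the selection in the head calls was not tested.

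Polymerase was piled up at the heads of the members and thin along their bodies. The median pausing ratio was 60.9 (lowest 40.8, highest 824), against 14.3 in the 1262 other eligible genes and 5.00 in the 300 least paused. The median head density was 42.1 RPM per kb in members and 19.2 in other eligible genes, and the median body density 0.618 against 1.46 RPM per kb. The high ratios thus came with denser heads and with thinner bodies. Member bodies were longer, with a median of 48.3 kb against 28.5 kb, and body length enters the ratio. Just inside the limit of 300 were Rad51c (40.95), a recombination protein, Itpkb (40.84), a kinase that phosphorylates inositol trisphosphate, and Tesk2 (40.78). Just outside were Cep76 (40.74), Sqor (40.72) and Mphosph9 (40.66), so nothing separates the groups at the limit. Ranking by the WT libraries alone kept 272 of the 300 members, and by the DM libraries alone 273.

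The highest ratio belonged to Cabyr (chr18:12741311-12755260, plus strand), a calcium-binding protein known from sperm, at 824. Its body held 1.83, 1.26 and 1.75 RPM (WT) against 4.51, 3.02 and 3.85 (DM), while its head held 46.6, 50.8 and 43.4 RPM (WT) against 69.3, 55.2 and 64.4 (DM). Every DM library was above every WT library in both windows, with a body log2 fold change of 0.94 (SE 0.289; adjusted p 0.0193 in edgeR) and a head log2 fold change of 0.47 (SE 0.179; adjusted p 0.0531 in edgeR), and the body call was not past the threshold without DM replicate 1 (0.105) or DM replicate 3 (0.0755) in edgeR. Snx7, an endosomal sorting nexin (ratio 354), held 18.5, 64.8 and 34.6 head RPM (WT) against 30.2, 31.8 and 30.9 (DM). WT replicate 2 was the highest library in that head window and the DM libraries lay between the WT values, whereas the Snx7 body, at 16.1, 13.04 and 21.7 body RPM (WT) against 33.4, 26.1 and 36.8 (DM), was highest in DM, with a log2 fold change of 0.63 (SE 0.181; adjusted p 0.0143 in edgeR); without DM replicate 3 the edgeR adjusted p was 0.0601. Aplp2 (ratio 285), a relative of the amyloid precursor protein, had 23.9, 22.2 and 22.7 body RPM (WT) against 47.1, 39.97 and 45.3 (DM), with no overlap and a log2 fold change of 0.65 (SE 0.0946; adjusted p 7.87e-04 in edgeR). Its head, at 44.3, 62.9 and 47.4 head RPM (WT) against 52.1, 50.4 and 55.5 (DM), overlapped between groups.

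Among the next members, 4 had more body reads in DM and 3 fewer. Higher in the body were E030030I06Rik (0.94, edgeR adjusted p 0.00371), Tmem243 (0.46, 0.0156), Enpp1 (0.81, 0.0347), an ectoenzyme that makes pyrophosphate, and Fam102b (0.80, 0.00271), all as log2 fold changes. Lower were Paqr8 (-1.06, edgeR adjusted p 0.00503), a membrane progestin receptor, Hectd2 (-1.12, 0.00331), a HECT ubiquitin ligase, and Errfi1 (-1.01, 0.00780), a feedback inhibitor of the EGF receptor. The Enpp1 and Tmem243 body calls were not past the threshold in 3 of the 6 and 2 of the 6 fits that leave out 1 library. Errfi1 held 80.6, 141 and 64.5 head RPM (WT) against 69.6, 55.2 and 63.1 (DM), and its DM libraries overlapped those of WT there. Atp2c1, a calcium and manganese pump of the Golgi, had a body log2 fold change of 0.07 (SE 0.104; adjusted p 0.544 in edgeR) and a head log2 fold change of -0.16 (SE 0.163; adjusted p 0.477 in edgeR). The heads of Hectd2 (-0.83, edgeR adjusted p 0.00551) and Paqr8 (-0.57, 0.0178) fell and those of E030030I06Rik (0.71, 0.0110) and Enpp1 (0.83, 0.0287) rose. Of these 4 head calls, the last 2 and that of Paqr8 were not past it when scaled by library totals, nor in 3 of the 6, 1 of the 6 and 4 of the 6 fits without 1 library for Paqr8, E030030I06Rik and Enpp1. Acer2, at rank 3, is described with the members in which 1 WT library stood out.

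**Figure D1:**
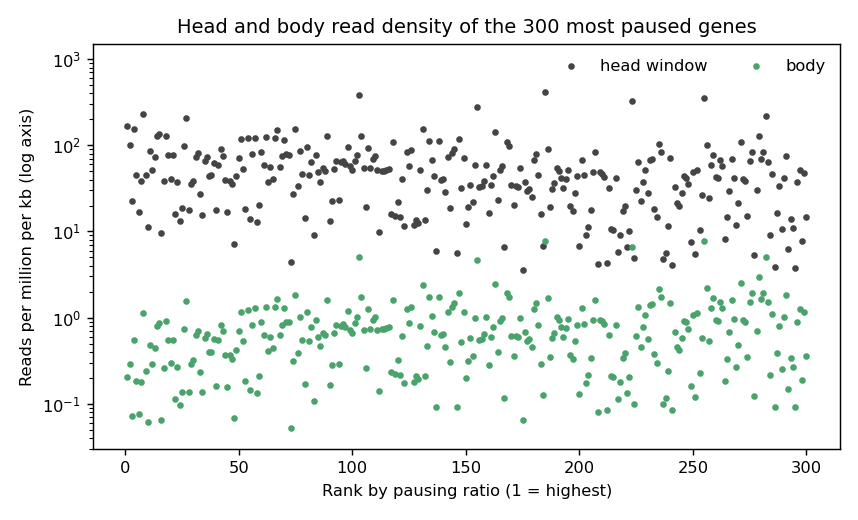
Read density of the head window (dark) and the body (green) of each of the 300 members over all 6 libraries, in RPM per kb on a log axis, by rank of the pausing ratio. Head densities have a median of 42.1 and body densities a median of 0.618, and both spread widely at every rank.

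Summed over the 300 members, the 3 WT libraries held 42.2, 87.4 and 49.1 head reads for every 100 body reads, and the 3 DM libraries 39.9, 45.2 and 42.5. WT replicate 2 stood apart from the other 5 libraries, and DM replicate 2 was above WT replicate 1, so the groups overlapped. The mean was 59.6 ± 24.4 (WT) against 42.5 ± 2.65 (DM; SD over n = 3 libraries each). DM minus WT was -17.1, smaller in size than the SD of WT, and -3.12 without WT replicate 2. The excess of WT replicate 2 over the mean of WT replicates 1 and 3 was 1.92-fold in members, 1.56-fold in other eligible genes and 1.25-fold in the 300 least paused. It came with a larger share of the library in member heads (0.840% against 0.449% and 0.524% in WT replicates 1 and 3) and a similar share in member bodies (0.961% against 1.06% in WT replicate 1). WT replicate 2 is also the library with the fewest reads, and the part of depth in this was not tested.

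Gene by gene the same library led. The ratio of head to body reads was highest in WT replicate 2 in 262 of 300 members (87.3%), in 69.3% of other eligible genes, in 47.7% of the least paused and in 65.7% of all genes. All 3 DM libraries were below all 3 WT libraries in 75 members (25.0%), where all genes gave 21.3%, and above them in 4, where all genes gave 4.01%. Against WT replicates 1 and 3 only, DM was below in 76 members (25.3%; all genes 23%) and above in 34 (11.3%; all genes 13.9%). Mean RPM was lower at the head and higher in the body of DM in 94 members (31.3%), against 19.7% of other eligible genes, and without WT replicate 2 these were 7.00% and 7.84%. With that library left out, the members thus gave nearly the same share as the genes they were set against.

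**Figure D2:**
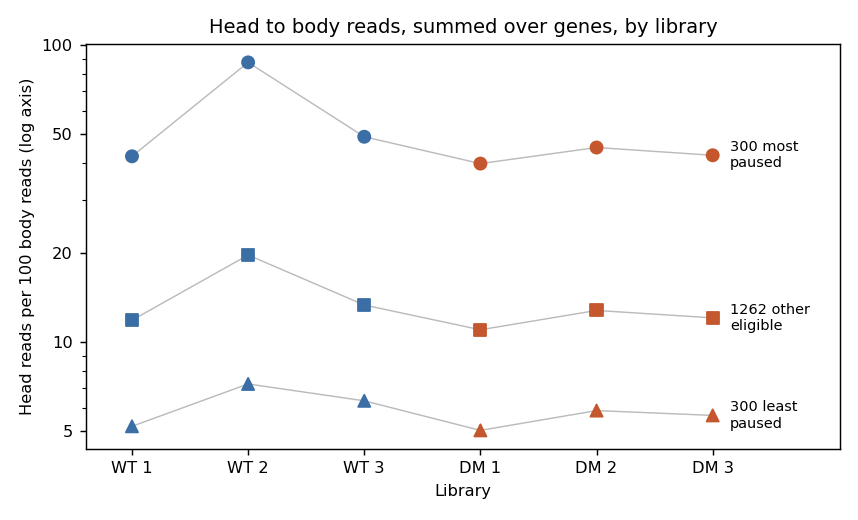
Head reads per 100 body reads, summed over the genes of each class, in each library on a log axis; circles are the 300 members, squares the 1262 other eligible genes, triangles the 300 least paused, blue is WT, orange is DM, and grey lines join the libraries of a class. WT replicate 2 is the highest library in each class, by the widest margin in the members (87.4 against 39.9 to 49.1).

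No member passed an edgeR adjusted p of 0.05 for a change in the head-to-body ratio (0 of 300, beside 0.0776% of all genes tested). In 48 members the unadjusted edgeR p was under 0.05 (44 lower, 4 higher in DM), beside 395 of 2577 genes tested (349 lower, 46 higher). DESeq2 called 7 members, all lower, and its share over all genes was not counted. The members' median log2 change in the ratio was -0.39, against -0.24 in other eligible genes, and 240 of 300 were below 0. Without WT replicate 2 the medians were -0.10 and -0.09. In that fit 10 members passed, 8 lower and 2 higher in DM (3.33%, 2.67% and 0.667%), beside 3.14%, 2.22% and 0.919% of all genes, so the members' shares were near the background. With separate TMM factors for heads and bodies, 5 members passed (1.67%; all genes 2.17%), and the members' median was -0.04 while that of all genes was 0.10, so the sign of the median over all genes depends on the scaling.

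**Figure D3:**
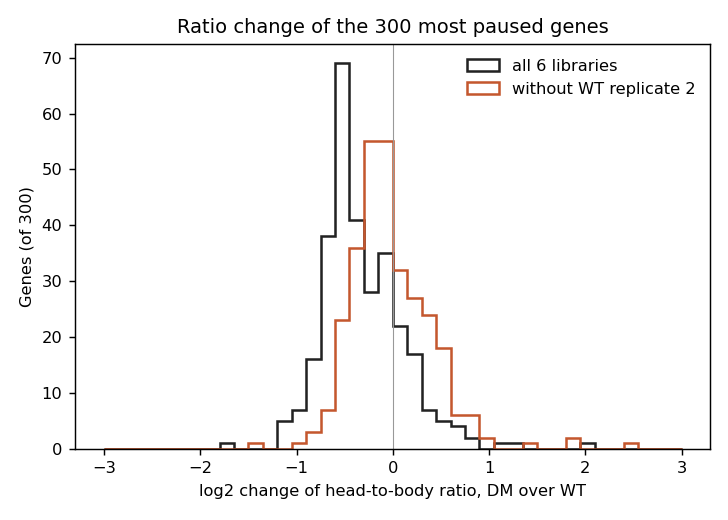
Number of members by log2 change of the head-to-body ratio, DM over WT, in bins of equal width, with all 6 libraries (black) and without WT replicate 2 (orange). The median lies at -0.39 with all libraries and at -0.10 without that library.

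The member with the lowest p in the ratio test was Gpcpd1 (chr2:132529082-132578178, minus strand), which encodes a glycerophosphocholine phosphodiesterase. It held 53.5, 89.9 and 40.2 head reads for every 100 body reads (WT) against 16.3, 17.6 and 18.3 (DM), and every DM library was below every WT library. The log2 change was -1.73 (SE 0.304, adjusted p 0.0551 in edgeR) with all libraries. It was -1.42 without WT replicate 2 (edgeR adjusted p 0.00198), -1.79 without WT replicate 1 (0.0375) and -2.00 without WT replicate 3 (0.0395). Without DM replicate 1, 2 or 3 it did not pass, with edgeR adjusted p of 0.415, 0.242 and 0.163. Its body held 52.1, 55.8 and 60.3 RPM (WT) against 136, 126 and 131 (DM), a log2 fold change of 0.93 (SE 0.0740; adjusted p 2.00e-04 in edgeR). Its head held 27.8, 50.2 and 24.3 RPM (WT) against 22.2, 22.1 and 24.02 (DM), and the log2 fold change of -0.47 (SE 0.167; adjusted p 0.0380 in edgeR) was not past the threshold in 5 of the 6 fits without 1 library (up to 0.174), nor with library totals (0.1503). With all libraries and TMM, Gpcpd1 was the one member with a lower head and a higher body past the threshold in both tests.

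The next 4 by p were Sh3bp5, an exchange factor for RAB11, Pnpla8, a calcium-independent phospholipase, Snx2, a sorting nexin of the endosome, and Fbxl2, an F-box protein. Sh3bp5 held 24.1, 43.3 and 31.4 head reads for every 100 body reads (WT) against 12.3, 16.2 and 13.9 (DM). For Pnpla8 the values were 78.3, 114 and 55.6 (WT) against 35.1, 39.4 and 33.5 (DM). For Snx2 they were 58.8, 76.3 and 46.9 (WT) against 23.4, 32.6 and 31.6 (DM). For Fbxl2 they were 36.5, 42.7 and 28.6 (WT) against 18.4, 20.6 and 18.3 (DM). All 4 genes were lower in every DM library than in every WT library. With all libraries the edgeR adjusted p was 0.143 for Sh3bp5 (-1.19), 0.174 for Pnpla8 (-1.14), 0.183 for Snx2 (-1.04) and 0.202 for Fbxl2 (-0.89). Without WT replicate 2 these became 0.0175 (-0.97), 0.0270 (-0.88), 0.0299 (-0.86) and 0.0339 (-0.76). None of the 4 passed without a DM library (edgeR adjusted p 0.388 to 0.790) or without WT replicate 3 (0.176 to 0.280). Without WT replicate 1, Sh3bp5 passed (0.0375), and Pnpla8 (0.0598), Snx2 (0.0601) and Fbxl2 (0.0687) did not. In all 4 the body rose, by 0.97 in Sh3bp5 (edgeR adjusted p 2.08e-04), 0.58 in Snx2 (0.00178), 0.46 in Fbxl2 (0.00218) and 0.36 in Pnpla8 (0.0246; not past it without DM replicate 1, 0.0681, or DM replicate 3, 0.0956). Their heads did not pass, with log2 fold changes from -0.47 in Pnpla8 to 0.13 in Sh3bp5, although Pnpla8 passed without WT replicate 3 and without WT replicate 2 (in the latter -0.52, 0.0475). Also lower in the fit without WT replicate 2, and named for that after their values had been seen, were Aplp2 (-0.72), the tyrosine phosphatase gene Ptpn1 (-0.67) and Ric1 (-0.68). Higher were Csgalnact2 (0.70), which starts chondroitin chains, and Prn (0.92), with edgeR adjusted p from 0.0299 to 0.0375 over these 5. Prn and the prion protein gene Prnp overlap on chromosome 2 and share their head window, so they count largely the same reads and make up 1 locus among the members. With separate TMM factors, Prn, Prnp and Kifbp were higher and Gpcpd1 and Sh3bp5 lower.

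Heads were lower in DM more often than higher. Of 300 members, 108 passed in head reads (36%; all genes 38.2%), 37 higher (12.3%; all genes 18.9%) and 71 lower (23.7%; all genes 19.3%). The median head log2 fold change was -0.09 in members and -0.03 in all genes tested. When scaled by library totals, 43 members passed (14.3%; all genes 20.3%), 9 higher (3.00%; all genes 9.62%) and 34 lower (11.3%; all genes 10.7%). Higher calls were thus 34.3% of the members' calls with TMM and 20.9% with library totals. Leaving out a DM library lowered the members' count to 49, 68 and 45 for DM replicates 1, 2 and 3, with 16, 25 and 17 higher and 33, 43 and 28 lower. Without WT replicate 2, 52 were higher and 76 lower. The members' median was then -0.0091 and 50.7% of them were below 0, beside -0.0031 and 50.1% over all genes tested. With the TMM factors of body counts applied to heads, 5 members were higher and 83 lower. With those factors the median over all genes tested was -0.41, and 71.9% of all genes were below 0. The share of all genes past the threshold was not counted with those factors or without 1 library.

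Among head rises, the largest was in Gramd3, a GRAM-domain gene on chromosome 18, with 13, 15 and 34 head reads (WT) against 61, 51 and 54 (DM), a log2 fold change of 1.43 (SE 0.323; adjusted p 0.00475 in edgeR). Mcub (chr3:129914960-129970206, minus strand), whose product is an inhibitory subunit of the mitochondrial calcium uniporter, held 2.31, 3.77 and 3.37 head RPM (WT) against 7.44, 6.97 and 8.01 (DM). No DM library overlapped a WT library in it, as the rule for naming these head rises requires on the TMM scale. The Mcub head log2 fold change was 1.33 (SE 0.195, adjusted p 5.63e-04 in edgeR). Lonrf3, a RING-finger gene on the X chromosome, held 8.09, 15.02 and 8.74 head RPM (WT) against 22.7, 22.8 and 27.2 (DM), a log2 fold change of 1.30 (SE 0.157; adjusted p 2.05e-04 in edgeR). Timp2, an inhibitor of metalloproteinases, held 7.79, 11.2 and 10.1 head RPM (WT) against 19.7, 19.3 and 22.0 (DM), a log2 fold change of 1.14 (SE 0.154; adjusted p 3.93e-04 in edgeR). In Mcub, Lonrf3 and Timp2 the bodies rose too, by 1.06, 1.04 and 0.80 (edgeR adjusted p 7.88e-04, 9.06e-04 and 0.00302). Ablim1, an actin-binding LIM protein, held 1.87, 1.52 and 1.79 head RPM (WT) against 4.07, 4.15 and 4.604 (DM) (1.31, edgeR adjusted p 0.00255), whereas its body log2 fold change of 0.35 (SE 0.198; adjusted p 0.136 in edgeR) did not pass; without WT replicate 2 it was 0.64 (0.00412), and with library totals 0.65 (0.00944). These 5 head calls also passed with library totals and in each fit without 1 library.

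Among head falls, the largest was in Satb1 (chr17:51736187-51832672, minus strand), an organiser of chromatin in lymphoid cells, with 26, 80 and 31 head reads (WT) against 9, 10 and 11 (DM). WT replicate 2 held the most reads and every WT library was above every DM library, with a log2 fold change of -2.19 (SE 0.465; adjusted p 0.00315 in edgeR). Rasgrp1, a diacylglycerol-activated exchange factor for Ras, held 4.83, 7.34 and 7.61 head RPM (WT) against 2.10, 3.22 and 2.05 (DM), a log2 fold change of -1.36 (SE 0.234; adjusted p 0.00112 in edgeR), and its body fell by 1.38 on the log2 scale (edgeR adjusted p 2.47e-04). Ryk, a receptor for Wnt ligands, held 2.70, 4.23 and 3.02 head RPM (WT) against 1.23, 1.43 and 1.00 (DM), a log2 fold change of -1.35 (SE 0.261; adjusted p 0.00200 in edgeR). The netrin receptor gene Unc5a held 46, 51 and 49 head reads (WT) against 13, 32 and 9 (DM), a log2 fold change of -1.45 (SE 0.390; adjusted p 0.0112 in edgeR), which was not past the threshold without DM replicate 1 (0.0741) or DM replicate 3 (0.0709). Unc5a overlaps another gene of the table. Ccdc85c held 59, 64 and 21 head reads (WT) against 10, 19 and 10 (DM), a log2 fold change of -1.92 (SE 0.472; adjusted p 0.00725 in edgeR), and 0.0510 without DM replicate 1. All 5 were lower in every DM library on the TMM scale, as the rule for naming them requires.

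Body reads of the members were past the threshold less often than those of all genes with TMM scaling, in either direction; the difference of the shares was not tested. With TMM scaling, 200 members passed (66.7%; all genes 77.1%), 86 higher (28.7%; all genes 34.7%) and 114 lower (38.0%; all genes 42.5%). The higher calls numbered 56 without DM replicate 1, 58 without DM replicate 3 and 111 without WT replicate 3, against 107, 108 and 114 lower. No share over all genes was counted for these fits. With library totals 297 passed (99.0%; all genes 99.5%), 186 higher (62.0%; all genes 57.4%) and 111 lower (37.0%; all genes 42.1%), so that 43.0% of the members' calls were higher with TMM and 62.6% with library totals. Library totals moved the median body log2 fold change of all genes from 0.11 to 0.40, and that of all heads from -0.03 to -0.11. Member bodies held fewer reads than those of other eligible genes, with medians of 3325 and 5378 over 6 libraries, and the part of that in the smaller share was not tested. Past the threshold in head and in body alike were 28 members with rises and 69 with falls, besides Gpcpd1, whose head and body went opposite ways. Only the body passed in 102 members, 57 higher and 45 lower. Only the head passed in 10, 9 of them higher and 1 lower (Phf20l1). These joint counts were made for the members alone, so no share over all genes stands beside them. Over the 300 members the 2 log2 fold changes had a Pearson r of 0.80, beside 0.86 in other eligible genes. The r is a description of genes that share the same libraries and were all selected for a body change. Of the members, 228 (76.0%) had the same sign in both windows, beside 83.4% of other eligible genes.

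**Figure D4:**
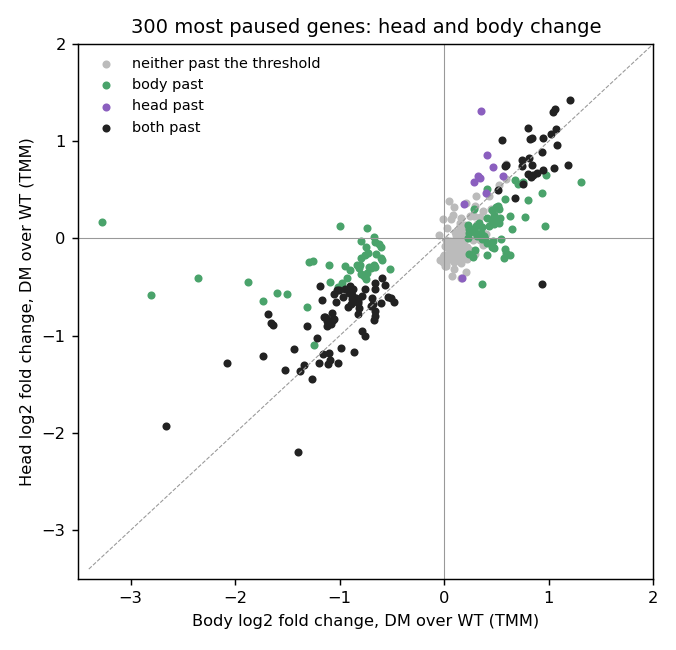
Head against body log2 fold change, DM over WT with TMM scaling, for each of the 300 members; colours show which of the tests passed an edgeR adjusted p of 0.05, and the dashed line marks equal change. Most members past both thresholds lie in the lower left (69) or upper right (28), and 1, Gpcpd1, lies in the lower right.

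The 5 named body rises were in Hpse, Gramd3, Ly75, Irf8 and Tnfrsf11a. Hpse, which encodes heparanase, held 4.26, 4.57 and 6.21 body RPM (WT) against 15.1, 14.7 and 15.6 (DM), a log2 fold change of 1.31 (SE 0.166; adjusted p 4.94e-04 in edgeR). Gramd3 held 3.74, 3.04 and 3.23 body RPM (WT) against 10.3, 7.86 and 10.2 (DM), a log2 fold change of 1.20 (SE 0.211; adjusted p 0.00164 in edgeR). Neither gene overlapped between the groups. Ly75, the endocytic receptor DEC-205 of dendritic cells, held 16.1, 18.1 and 17.6 body RPM (WT) against 48.5, 43.1 and 52.4 (DM), a log2 fold change of 1.19 (SE 0.104; adjusted p 2.08e-04 in edgeR). Irf8 (chr8:120736358-120756694, plus strand), a transcription factor that directs monocyte and dendritic cell development, held 11.4, 18.9 and 20.9 body RPM (WT) against 46.9, 38.7 and 46.0 (DM), a log2 fold change of 1.08 (SE 0.200; adjusted p 0.00204 in edgeR). Tnfrsf11a, the receptor RANK, held 2.74, 3.77 and 4.46 body RPM (WT) against 11.3, 7.47 and 9.36 (DM), a log2 fold change of 1.07 (SE 0.249; adjusted p 0.00562 in edgeR). In each of these 5 the lowest DM library was above the highest WT library, as the rule for naming them requires on the TMM scale. Each passed in every fit without 1 library. The mature myeloid markers were also higher in DM (271 to 331 RPM against 660 to 745); their part was not tested. The Irf8 head rose as well (11.1, 20.4 and 15.3 head RPM (WT) against 28.2, 26.1 and 31.0 (DM); 0.97, edgeR adjusted p 5.63e-04), and so did that of Ly75 (0.75, 0.0128), which did not pass with library totals or without any DM library. The head of Hpse did not pass with all libraries (0.58, 0.119), but did without WT replicate 2 (0.99, 0.00540).

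In several of the largest body falls 1 WT library stood above the others. Acer2, an alkaline ceramidase of the Golgi, held 13.6, 3.51 and 2.84 body RPM (WT) against 1.62, 1.68 and 1.55 (DM), a log2 fold change of -2.35 (SE 0.629; adjusted p 0.0105 in edgeR). Without WT replicate 1 it was -1.21 (0.00294). Its head held 6.61, 12.4 and 7.91 RPM (WT) against 5.997, 6.83 and 6.11 (DM), where WT replicate 1 was not the highest, and did not pass (-0.40, edgeR adjusted p 0.0713). Ccdc85c held 12.7, 3.37 and 1.88 body RPM (WT) against 1.09, 1.19 and 1.25 (DM), and its log2 fold change went from -2.66 (edgeR adjusted p 0.0105) to -1.38 (0.00747) without WT replicate 1. Lifr, the receptor for leukaemia inhibitory factor, held 12.4, 4.57 and 2.32 body RPM (WT) against 2.50, 1.78 and 2.25 (DM). One DM library exceeded the lowest WT library on the RPM scale, and the log2 fold change of -1.88 (SE 0.601; adjusted p 0.0220 in edgeR) became -0.88 (0.0455) without WT replicate 1 and did not pass without any 1 of the DM libraries (up to 0.0762). Slc1a4, a neutral amino acid transporter, held 13.8, 8.27 and 4.94 body RPM (WT) against 2.85, 4.20 and 3.00 (DM), with -1.73 (edgeR adjusted p 0.00609) and, without WT replicate 1, -1.22 (0.00713). In Wnt9a, which encodes a Wnt ligand, WT replicate 2 was the high library instead: the body held 9.18, 22.0 and 7.17 RPM (WT) against 3.85, 4.30 and 3.00 (DM), with -2.08 (edgeR adjusted p 0.00419) and, without WT replicate 2, -1.36 (0.00400).

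Body RPM in WT replicate 1 was at least 2-fold that of every other library in 8 members (2.67%; other eligible genes 0.872%): Acer2, Whrn, Dusp14, Ccdc85c, Ccnb1ip1, Lifr, Fbxo15 and Kank2, of which Whrn and Kank2 are named for this after their values had been seen. In none of the 300 members was the head that far above in WT replicate 1. The fibroblast, stromal and endothelial markers were highest in the same library (74.3 RPM), and their part was not tested. The widest gap was in Ccnb1ip1, a meiotic crossover factor, whose body held 56.6, 7.54 and 2.36 RPM (WT) against 2.71, 3.46 and 2.45 (DM) and whose head held 16.9, 16.1 and 14.3 RPM (WT) against 11.8, 24.8 and 16.4 (DM). Its body log2 fold change of -3.27 (SE 1.07; adjusted p 0.0241 in edgeR) was -0.998 (0.0841) without WT replicate 1, and it did not pass without any 1 of the DM libraries either (up to 0.0745). WT replicate 2 was at least 2-fold above every other library in the heads of 12 members and in the body of 1, Wnt9a. This head count was made for the members alone. The share of the library in heads was raised in both classes in WT replicate 2. It was 1.73-fold the mean of WT replicates 1 and 3 in members and 1.42-fold in other eligible genes.

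Of the gene lists, 9 of 50 eligible genes of NF-kB, interferon and inflammatory signalling were members, a share of 18.0% beside 19.2% of all eligible genes. In heads 4 rose, none fell and 5 did not pass, with a median log2 fold change of 0.36; in bodies 5 rose, none fell and 4 did not pass, with a median of 0.29. Over all genes tested the medians were -0.03 and 0.11, with 18.9% of heads higher and 19.3% lower and 34.7% of bodies higher and 42.5% lower. Of the 9 genes, 1 head rise and 3 body rises were past the threshold in every fit without 1 library. Irf8 and Tnfrsf11a were past the threshold in both windows. The Tnfrsf11a head (1.13, edgeR adjusted p 0.0103) was not past it without DM replicate 1 (0.0650) or with the TMM factors of body counts (0.0858), and the Irf8 head was not past it with those factors (0.129). Ripk2, a kinase downstream of NOD receptors and the list's most paused gene (ratio 139), held 17.6, 30.9 and 22.2 head RPM (WT) against 26.6, 27.8 and 30.4 (DM), with 0.36 (edgeR adjusted p 0.0447), and its body did not pass (0.19, 0.0783). Ifitm10 held 37.8, 34.7 and 27.5 head RPM (WT) against 54.3, 46.4 and 50.8 (DM), with 0.62 (edgeR adjusted p 0.0310). Neither of those head calls passed with library totals, and they did not pass in 5 of the 6 and 4 of the 6 fits without 1 library. With the TMM factors of body counts they were -0.03 in Ripk2 (edgeR adjusted p 0.932) and 0.30 in Ifitm10 (0.367). None of the list's 4 head rises thus passed with those factors. Ifih1, a sensor of double-stranded RNA, held 6.61, 8.34 and 8.13 body RPM (WT) against 12.6, 10.4 and 11.6 (DM), a body log2 fold change of 0.29 (SE 0.162; adjusted p 0.127 in edgeR). The body rises of Ifnar1 (0.27, edgeR adjusted p 0.0323), a chain of the type I interferon receptor, and Traf6 (0.23, 0.0293), an adaptor of Toll-like receptors, did not pass in 5 of the 6 and 3 of the 6 fits without 1 library, nor with DESeq2 (0.115 and 0.106) or the replicate block (0.0608 and 0.0776). The body rise of Nlrc5, a regulator of MHC class I genes, was 0.76 (6.86e-04).

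Of the 7 cell cycle, replication and DNA damage genes among the members, 6 bodies fell and 1 rose (all genes: 42.5% lower, 34.7% higher), with a median log2 fold change of -0.82 beside 0.11 over all genes. In heads 3 fell and 4 did not pass (all genes: 19.3% lower, 18.9% higher). Among the 7, 4 body falls and 2 head falls were past the threshold in every fit without 1 library. Kif11, a motor of the mitotic spindle, held 18.1, 29.7 and 17.3 head RPM (WT) against 10.2, 12.7 and 12.4 (DM) and 55.0, 42.7 and 44.1 body RPM (WT) against 38.0, 36.2 and 35.7 (DM). It fell in both windows, with -0.80 (SE 0.157; adjusted p 0.00215 in edgeR) for the head and -0.67 (SE 0.121; adjusted p 0.00191 in edgeR) for the body. Rad54b, of homologous recombination, held 23.8, 15.4 and 18.6 body RPM (WT) against 12.5, 13.7 and 14.0 (DM), with -0.82 (edgeR adjusted p 0.00360); its head call (-0.64, 0.0205) did not pass with library totals or in 4 of the 6 fits without 1 library. Rad51c, the last but 2 of the ranking, fell in head (-1.28, edgeR adjusted p 0.00576) and body (-1.01, 0.0120; 0.0542 without DM replicate 1). Pole, the catalytic subunit of DNA polymerase epsilon, fell in the body (-0.95, edgeR adjusted p 0.0109), and so did Cenpv (-0.80, 0.00349). The list was written as symbol patterns, which also took in the meiotic Ccnb1ip1 described above and the gene that rose, Cdc42bpb, a kinase of the actin cytoskeleton (0.33, 0.0178; 0.0596 without DM replicate 1 and 0.0809 without DM replicate 3).

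Chromatin genes supplied 6 members of 19 eligible genes (31.6%), and in them 3 heads and 4 bodies fell and none rose (all genes: 19.3% of heads and 42.5% of bodies lower, 18.9% and 34.7% higher). The medians were -0.41 and -0.60, beside -0.03 and 0.11 over all genes. The 4 body calls were past the threshold in every fit without 1 library, and 1 of the 3 head calls was; with library totals none of the 3 heads passed. Ezh2 (chr6:47530139-47595030, minus strand), the methyltransferase of Polycomb repressive complex 2, held 31.8, 62.0 and 33.7 head RPM (WT) against 23.5, 24.8 and 25.5 (DM). Every DM library was below every WT library, the log2 fold change was -0.67 (SE 0.147; adjusted p 0.00373 in edgeR), and with library totals it was -0.79 (0.0568). Its body held 58.6, 48.2 and 53.5 RPM (WT) against 42.8, 42.1 and 37.6 (DM), a log2 fold change of -0.68 (SE 0.102; adjusted p 8.63e-04 in edgeR). Kdm4b, a histone H3 lysine demethylase, held 95.3, 110.2 and 114 body RPM (WT) against 87.7, 79.7 and 90.4 (DM), a body log2 fold change of -0.60 (SE 0.0888; adjusted p 8.19e-04 in edgeR). Phf20l1, a reader of methylated lysine, held 29.4, 48.0 and 30.7 head RPM (WT) against 24.2, 26.9 and 25.4 (DM), with -0.41 (edgeR adjusted p 0.0285), and was the one member with a lower head and a body that did not pass (0.17, 0.204). Its body did pass without WT replicate 1 (0.30, 0.0455). The head call did not pass with library totals or in 3 of the 6 fits without 1 library. Arid5a fell in the body (-0.60, edgeR adjusted p 8.33e-04), as did Hmgn3 (-1.25, 0.00497), while Baz1a had a body log2 fold change of -0.05.

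Vesicle traffic, lysosome and autophagy genes were the list with the most members, 17 of 70 eligible genes (24.3%). In bodies 9 rose, 1 fell and 7 did not pass, with a median of 0.28; in heads 2 rose, 1 fell and 14 did not pass, with a median of -0.03. Over all genes 34.7% of bodies were higher and 42.5% lower (median 0.11), and 18.9% of heads were higher and 19.3% lower (median -0.03). Of the 9 body rises, 5 were past the threshold in every fit without 1 library and 7 with DESeq2. Both head rises, in Ap1s2 and Rab11fip1, were lost with library totals (0.269 and 0.415) and in 4 of the 6 and 5 of the 6 fits without 1 library. Of 6 sorting nexins, 4 rose in the body: Snx7 and Snx2, as above, Snx9 (0.51, edgeR adjusted p 0.00194), which acts in clathrin endocytosis, and Snx27 (0.50, 0.00384), which acts in recycling from endosomes. Snx13 (0.10) and Snx6 (0.01) did not pass with TMM. Snx9 held 28.8, 27.2 and 27.4 body RPM (WT) against 50.9, 43.9 and 51.1 (DM), with DM above WT throughout, and 7.83, 23.5 and 11.6 head RPM (WT) against 14.1, 17.5 and 16.9 (DM), where WT replicate 2 was the highest; its head passed without that library (0.63, 0.00360). Of 4 syntaxins, the body rises of Stx6 and Stx11 did not pass with DESeq2 (0.0943 and 0.0661) or without some of the libraries (3 of the 6 and 2 of the 6 fits), that of Stx7 was 0.47 (0.00250) and Stx18 did not pass. Sec24d, a cargo adaptor of COPII vesicles, was the list's gene that fell (-0.66, edgeR adjusted p 3.86e-04).

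Ubiquitin ligases and deubiquitinases had 10 members of 35 eligible genes (28.6%), of which 2 bodies rose, 2 fell and 6 did not pass (all genes: 34.7% higher, 42.5% lower), and 1 head fell (all genes: 19.3%). One body rise and 1 body fall were past the threshold in every fit without 1 library, and the head fall was not. Peli1, a ligase in Toll-like receptor signalling, held 31.2, 27.2 and 30.2 body RPM (WT) against 44.0, 39.8 and 44.4 (DM), with 0.24 (edgeR adjusted p 0.0372; not past it in 2 of the 6 fits without 1 library, nor with DESeq2, 0.0875). The deubiquitinase genes Usp2 (0.45, 0.0747) and Usp33 (0.19, 0.0530) did not pass with all libraries; both did without WT replicate 2, and Usp33 also without WT replicate 3 (without WT replicate 2, 0.0304 and 0.0483 in edgeR). Usp33 held 10.7, 37.9 and 14.6 head RPM (WT) against 18.0, 19.7 and 16.5 (DM), with WT replicate 2 far above the others. Kinase, phosphatase and lipid signalling genes had 11 members of 64 (17.2%), of which 3 bodies rose and 2 fell (all genes: 34.7% higher, 42.5% lower). Dusp14, a phosphatase of MAP kinases, held 6.88, 2.32 and 2.32 body RPM (WT) against 1.53, 1.38 and 1.501 (DM), with WT replicate 1 apart; its body log2 fold change of -1.69 (SE 0.492; adjusted p 0.0151 in edgeR) was -0.90 (0.0115) without that library, and not past the threshold without DM replicate 1 (0.0513), 2 (0.0563) or 3 (0.0520). Stk38l, an NDR kinase (0.19, 0.180), and Prkx, a cAMP-dependent kinase (0.37, 0.0760), did not pass in the body.

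Transcription machinery and elongation control had 2 members of 11 eligible genes. Ell2 (chr13:75707585-75772364, plus strand), an elongation factor of the super elongation complex, held 56.3, 61.9 and 47.5 body RPM (WT) against 102, 85.3 and 93.4 (DM). The DM libraries were all above the WT libraries, with 0.46 (SE 0.137; adjusted p 0.0157 in edgeR), and 0.0622 without DM replicate 1. Its head, at 24.9, 48.6 and 22.6 head RPM (WT) against 33.1, 34.7 and 32.8 (DM), was highest in WT replicate 2 and did not pass (0.19, edgeR adjusted p 0.402). Med15, a subunit of the Mediator complex, had a body log2 fold change of 0.14 (SE 0.0903; adjusted p 0.178 in edgeR). Of the remaining lists, Zfp326 rose in head (0.76, edgeR adjusted p 0.00857) and body (0.59, 0.00405) and Zfp9 fell in both (-1.18, 0.00690, and -1.11, 0.00722), as the 2 members of 27 eligible zinc finger genes. Zfp326 did not pass at the head with library totals. The head calls of Zfp326 (0.0591) and Zfp9 (0.0506) did not pass without DM replicate 1. Single members came from RNA processing (Vars2, a mitochondrial tRNA synthetase, body -0.80, edgeR adjusted p 0.00205) and apoptosis (Apaf1, the core of the apoptosome, body 0.01, 0.941). The list of mitochondrial proteins, written as symbol patterns, took in Cpt1c by its symbol alone (body -1.07, edgeR adjusted p 0.0120). None of the 4 eligible immediate early and stress genes and none of the 5 eligible chaperone and proteasome genes was a member.

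**Figure D5:**
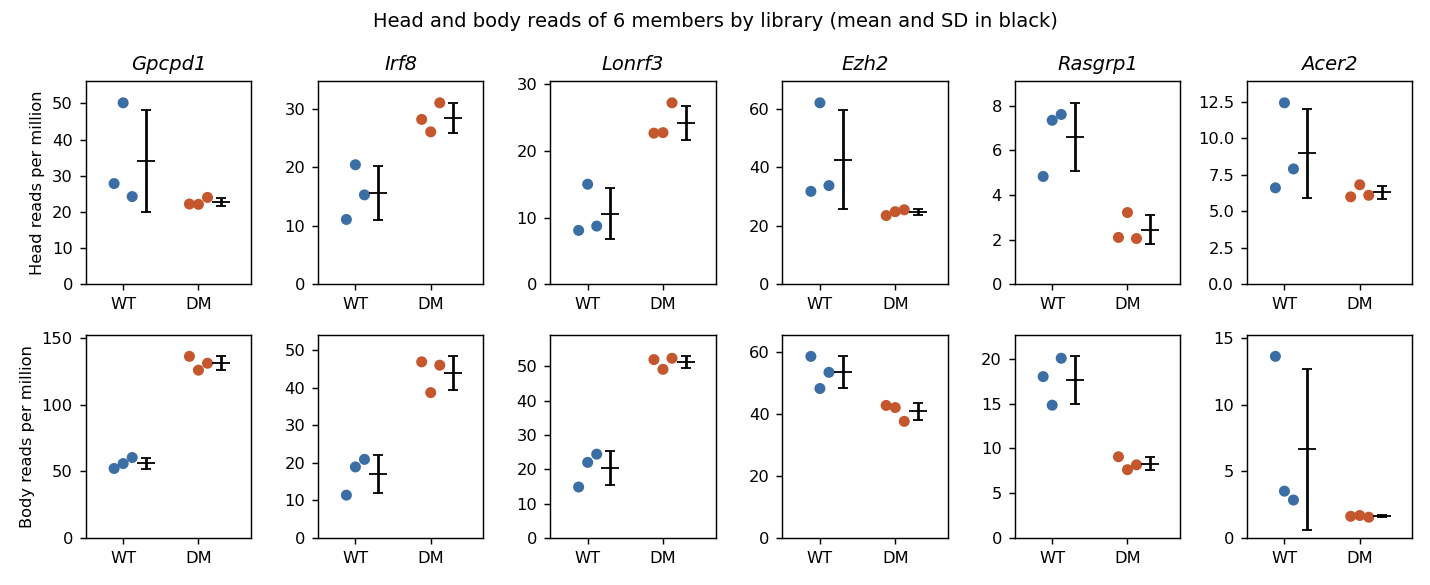
Head (upper) and body (lower) RPM in each library for 6 members; blue points are WT, orange points DM, and the black marks are the mean and SD of 3 libraries. Gpcpd1 rises in the body and not at the head, Irf8 and Lonrf3 rise in both, Ezh2 and Rasgrp1 fall in both, and in Acer2 a single WT library carries most of the WT body reads.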

How the data were processed

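Raw read counts per head and body window were deposited by the authors for each of 6 libraries, together with window lengths and library totals whose counting is not stated; the adjusted p-values of the authors' deposited table were used only to see how its rows had been selected. The submitters' processing notes name cutadapt, Trimmomatic, Bowtie 1.1.2, MACS2 and bedtools 2.28 and the builds mm10 and dm3, with no role given. Of 3022 transcript rows, 278 further transcripts of a gene were left out.

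Head counts, body counts and their ratio were tested over all genes with edgeR 4.0.16 (limma 3.58.1, R 4.3.3): quasi-likelihood test, filterByExpr (minimum count 10, minimum total 15), Benjamini-Hochberg adjustment over all genes tested and a threshold of 0.05. Head counts and body counts had TMM scaling on the library totals. The ratio test was the interaction of window and group with library as a block, on library totals without TMM factors. Its log2 changes therefore need not equal the difference between the TMM head and body changes. TMM here was computed on rows that had been selected on the body contrast. SEs were derived from the fitted log2 fold change and its F statistic. RPM is reads per 1000000 of the library total. The procedures were first run on simulated counts, whose spread between libraries was set below that fitted in the real ratio test (dispersion 0.0329). Nothing about the ratio test is drawn from them. Over heads, same-numbered libraries had correlations of their deviations from -0.0259 to 0.0565. Over bodies these were -0.0665, -0.191 and 0.410 for replicates 1, 2 and 3. Not every pair exceeded 0.1, so the numbers were not taken as pairs.

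Named are the 12 highest ratios, the 5 lowest p in the ratio test, up to 5 largest log2 fold changes per direction and window (past the threshold, mean of at least 50 body or 20 head counts, groups not overlapping on the TMM scale), up to 3 members per list by ratio, and 3 genes on each side of the limit; further list members are named to account for a count. The members and lists were chosen with earlier results of these data known. Alternatives were library totals, DESeq2 1.42.0, no filter, a replicate block and leaving out each library; separate TMM factors, body factors for heads, and the count without WT replicate 2 were chosen after seeing the data.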

Additional observations from a re-analysis of the deposited data

How the results depend on the processing

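Head reads passed in 108 members with TMM and in 43 with library totals; leaving out 1 library gave 45 to 128, the low values all from fits without a DM library. For the head-to-body ratio the count was 0, and 7 with DESeq2, 5 with separate TMM factors for heads and bodies, and 0 to 10 without 1 library. With the replicate block, the ratio count was 5, head reads gave 113 and body reads 190; same-numbered libraries share only a number here. In the fits without 1 library, the body count ranged from 163 to 225, DM minus WT in head reads for 100 body reads from -25.7 to -3.12, and 286 to 295 members were chosen again. With the TMM factors of body counts, heads passed in 88 members, 5 higher and 83 lower, so the split of head calls depends on the scaling. Shares over all genes, given above, were counted with TMM, with library totals and for the main ratio test. They were also counted for the ratio without WT replicate 2 and with separate TMM factors. For the other settings they were not counted, and those counts do not set the members apart from other genes. For single genes, 260 alternative values were compared for 25 results, those named for the lowest p in the ratio test or the largest fold changes. Of these values, 19 newly passed, 6 no longer passed, 0 reversed and the others kept their direction and side of the threshold. Other named genes were not part of this count, and many of their calls did not pass in some settings, as given above. The cause of these shifts was not tested.

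With 3 libraries a group the precision is low. WT replicate 2 enters every head and ratio value given for all 6 libraries, and member bodies, thin by choice, hold few reads. No paired reading of the replicate numbers is made beyond the replicate block.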

Other observations

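Of the members, 31 are enzymes or carriers of lipid and sphingolipid metabolism, grouped after the members were known, so their number is a description. In them 13 bodies rose, 9 fell and 9 did not pass, with a median body log2 fold change of 0.26, and 4 heads rose and 4 fell. Over all genes 34.7% of bodies were higher and 42.5% lower, and 18.9% of heads were higher and 19.3% lower. Among the 31 genes, 10 body rises, 9 body falls, 3 head rises and 1 head fall were past the threshold in every fit without 1 library, and with library totals 1 head rise and 1 head fall passed. Rises were seen in Cyp4v3 (body 1.03, edgeR adjusted p 0.00122), a fatty acid hydroxylase, Gdpd1 (0.98, 0.00524), a glycerophosphodiester phosphodiesterase, and Sgpl1 (0.43, 0.00334), which breaks down sphingosine 1-phosphate. Falls were seen in Fasn (body -0.91, edgeR adjusted p 0.00370), the fatty acid synthase, Spns2 (-0.83, 3.53e-04), an exporter of sphingosine 1-phosphate, Abca2 (-0.62, 8.59e-04) and Kdsr (-0.66, 7.07e-04), of ceramide synthesis. Fasn held 211, 167 and 128 body RPM (WT) against 118, 110.2 and 105 (DM), and the DM libraries were all below those of WT. Sgpp1, a sphingosine 1-phosphate phosphatase, rose at the head (0.85, edgeR adjusted p 0.00251), a call that did not pass with library totals (0.0810) or the TMM factors of body counts (0.260), and did not pass in the body (0.41, 0.100).

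Surface receptors, ligands and adhesion molecules, grouped in the same way, number 22. In bodies 12 fell, 5 rose and 5 did not pass, with a median of -0.88, and in heads 10 fell, 4 rose and 8 did not pass, with a median of -0.41 (all genes: 42.5% of bodies lower and 34.7% higher, 19.3% of heads lower and 18.9% higher). In every fit without 1 library 10 body falls, 2 body rises, 5 head falls and 0 head rises were past the threshold. Those that fell in both windows include Efnb2, an ephrin ligand, with 27.1, 54.2 and 26.01 head RPM (WT) against 14.9, 13.7 and 15.1 (DM) (head -1.17, edgeR adjusted p 5.63e-04; body -0.87, 0.00441), Nectin1 (body -1.20, 0.00792), Clstn1 (body -1.34, 0.00147) and the Wnt receptor gene Fzd6 (body -1.43, 0.0176; not past the threshold in 2 of the 6 fits without 1 library). The Fzd6 head did not pass in 3 of the 6 such fits (up to 0.0766), and that of Nectin1 in 2 of the 6 (up to 0.0579). Cd86, a costimulatory ligand of antigen-presenting cells, rose in both, with 2.92, 1.85 and 3.58 head RPM (WT) against 5.73, 4.85 and 6.76 (DM) (head 1.03, edgeR adjusted p 0.0171; body 0.84, 0.00817); the head call did not pass without DM replicate 1 or DM replicate 3, nor the body call without DM replicate 1.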
